A study of Mus musculus with 6 samples.

Results

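The Reg family of secreted lectins was followed across whole pancreas of mice that lack Rkip-1 and of wild-type mice. Its members here were Reg1, Reg2, Reg3a, Reg3b, Reg3d, Reg3g and Reg4, 7 of the 18193 genes that the array annotation names, and they were read from 8 of 45037 probe sets. A probe set is the group of short probes that reports 1 transcript, and only sets annotated with exactly 1 gene were taken. No probe set with several gene names included a Reg gene. The family was selected on the large rise of several members in the same comparison of genotypes that is described here. Every difference between genotypes in a Reg gene is therefore given as a description, and no p-value is read from it. There were 3 KO mice, with the genotype Rkip-1 KO, and 3 WT mice, all on a C57BL/6 background, from 1 colony and aged 8 weeks. Each group is given as biological replicates, with 1 array per sample, and KO and WT name these groups below. Neither sex nor the making of the KO allele is stated in the labels. The title of the series places the work in the control of beta cell proliferation by Rkip-1, an inhibitor of Raf kinase.

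Reg proteins are small C-type lectin-like proteins that are secreted by pancreatic acinar cells and by epithelium of the gut. Reg1 and Reg2 belong to the pancreatic stone protein branch, Reg3b is the pancreatitis-associated protein, and Reg3g binds the cell wall of Gram-positive bacteria in the mouse intestine. Reg3d is the mouse relative of the islet neogenesis-associated protein, and Reg4 is a more distant member known from the digestive tract. In rodent pancreas and gut, Reg3 genes are known to be induced by injury and by cytokines that signal through STAT3, and in the healthy pancreas several of them are low.

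Of the 7 genes, 6 lie in a row on chromosome 6 with 1 other gene among them, in the order Reg3b, Reg3d, Reg3a, Reg2, Reg1 and Reg3g, and Reg4 lies on chromosome 3. The stretch of 250 bases before the annotated start is shown for Reg3a, Reg3b, Reg3g and Reg2, which had the largest differences between genotypes, and for Reg4, which had none that could be seen. For Reg4 the stretch runs past 98222138, the first base of the gene in its RefSeq location, so its last bases lie inside the gene. The other stretches shown end just outside their genes. The sequences are from RefSeq, mouse build GRCm38.p6, written 5′ to 3′ on the strand of the gene. Capitals mark matches on either strand to TTCNNNGAA, a core bound by STAT factors, to CACCTG and TGGGAA, the parts of the site bound by the acinar factor PTF1, and to TATAAA.
Reg3a, chr6:78380459-78380708, plus strand: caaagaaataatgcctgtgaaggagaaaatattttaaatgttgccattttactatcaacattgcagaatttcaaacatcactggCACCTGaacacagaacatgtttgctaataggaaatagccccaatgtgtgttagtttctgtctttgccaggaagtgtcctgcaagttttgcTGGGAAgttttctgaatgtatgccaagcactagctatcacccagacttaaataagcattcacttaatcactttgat
Reg3b, chr6:78370635-78370884, plus strand: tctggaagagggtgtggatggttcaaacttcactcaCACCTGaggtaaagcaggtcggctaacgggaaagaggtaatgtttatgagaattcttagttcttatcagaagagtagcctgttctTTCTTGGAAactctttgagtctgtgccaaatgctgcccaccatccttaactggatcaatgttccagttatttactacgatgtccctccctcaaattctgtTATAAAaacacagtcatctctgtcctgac
Reg3g, chr6:78468875-78469124, minus strand: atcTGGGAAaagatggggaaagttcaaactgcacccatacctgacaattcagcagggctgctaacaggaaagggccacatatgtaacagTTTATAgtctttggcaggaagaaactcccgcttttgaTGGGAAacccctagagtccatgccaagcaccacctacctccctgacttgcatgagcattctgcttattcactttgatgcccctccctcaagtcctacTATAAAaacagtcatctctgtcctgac
Reg2, chr6:78404905-78405154, plus strand: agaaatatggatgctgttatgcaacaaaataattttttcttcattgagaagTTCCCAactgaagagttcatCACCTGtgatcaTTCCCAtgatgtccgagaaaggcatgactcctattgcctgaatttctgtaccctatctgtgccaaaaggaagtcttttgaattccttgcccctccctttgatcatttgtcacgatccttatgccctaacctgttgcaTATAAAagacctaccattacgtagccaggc
Reg4, chr3:98221906-98222155, plus strand: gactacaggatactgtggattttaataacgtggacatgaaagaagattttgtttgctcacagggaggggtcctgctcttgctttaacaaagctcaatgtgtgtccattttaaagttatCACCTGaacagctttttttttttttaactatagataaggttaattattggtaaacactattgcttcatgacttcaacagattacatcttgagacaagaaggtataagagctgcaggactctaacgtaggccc

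All 7 Reg genes had an entry among the 32851 upstream stretches of RefSeq. The STAT core TTCNNNGAA was found in 2 of the 7, in Reg3b from base -129 to -121 and in Reg3d from -238 to -230, counted back from the start, against 7.02% of all stretches. CACCTG was found in 5 of 7, namely Reg2, Reg3a, Reg3b, Reg3d and Reg4, against 17.2% of all. TGGGAA was found in 5 of 7, namely Reg1, Reg2, Reg3a, Reg3d and Reg3g, against 21.6%. TATAAA was found in 4 of 7, namely Reg1, Reg2, Reg3b and Reg3g, against 12.4% of all. Each of the 4 had a match near the start, and Reg3g had another from -161 to -156 on the other strand. In Reg3d the STAT core shares bases with a TGGGAA match on the other strand. When the stretches were aligned in pairs, Reg3b and Reg3g matched at 173 of 250 bases with 6 gapped positions, the highest of the 21 pairs, and Reg1 and Reg2 matched at 156. Pairs with Reg4 matched at 108 to 135. These matches describe letters only and were not tested for binding.

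Values below are RMA log2 expression, in which 1 unit is a 2-fold step. Array medians lay between 3.01 and 3.02 in KO and between 2.97 and 3.01 in WT, and the highest value on any array was 14.57. Pebp1, the gene that encodes Rkip-1, measured 5.71 to 6.50 in KO and 9.81 to 10.01 in WT by its brightest probe set, and 2.76 to 3.56 in KO and 8.45 to 8.58 in WT by its other set. All pairs of arrays correlated at 0.989 to 0.993. The 3′ minus 5′ difference of the Actb control, a sign of RNA quality, was 1.81 to 2.04 in KO and 1.78 to 1.99 in WT. Xist, transcribed from the inactive X chromosome, measured 4.43 in KO replicate 1 and 9.11 and 9.79 in the other KO arrays. In WT it measured 9.09 in replicate 3 and at most 4.30 in the other arrays. Eif2s3y, a gene of the Y chromosome, measured 4.89 in KO replicate 1 and at most 2.77 in the other KO arrays. In WT it measured 2.92 in replicate 3 and at least 4.76 in the other arrays. Both genes mark KO replicate 1 and WT replicates 1 and 2 as male and the other arrays as female. Sex was thus mixed in both genotypes and not balanced between them.

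Reg3a, Reg3b and Reg3g, the antibacterial branch of the family, stood higher in every KO array than in any WT array. Their WT values, too, lay above 4.53, the upper quartile of all probe sets, on every array. Reg3a measured 13.03, 13.37 and 13.02 in KO and 7.90, 5.76 and 5.74 in WT (13.14 ± 0.20 against 6.47 ± 1.24, mean ± SD, n = 3 each). The difference of 6.67 log2 units is 102-fold, and the lowest KO array lay 5.12 above the highest WT array. Reg3g measured 12.78, 12.48 and 11.37 in KO and 6.69, 5.07 and 4.82 in WT (12.21 ± 0.74 against 5.53 ± 1.02). Its difference was 6.68, or 103-fold, and KO replicate 3 lay below the other KO arrays without reaching any WT value.

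Reg3b was read by 2 probe sets, a plain one and one whose suffix, _s_at, marks possible binding of several transcripts. The plain set measured 13.88, 13.90 and 13.70 in KO and 10.18, 8.20 and 7.31 in WT (13.83 ± 0.11 against 8.56 ± 1.47), a difference of 5.26, or 38.4-fold. The _s_at set measured 14.07, 14.08 and 13.80 in KO and 9.71, 7.21 and 6.43 in WT (13.99 ± 0.16 against 7.78 ± 1.71), a difference of 6.20, or 73.6-fold. Both sets placed WT replicate 1 highest and WT replicate 3 lowest among WT arrays, and KO replicate 3 lowest among KO arrays. Cross-binding between similar Reg transcripts on these probes was not tested.

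**Figure D1:**
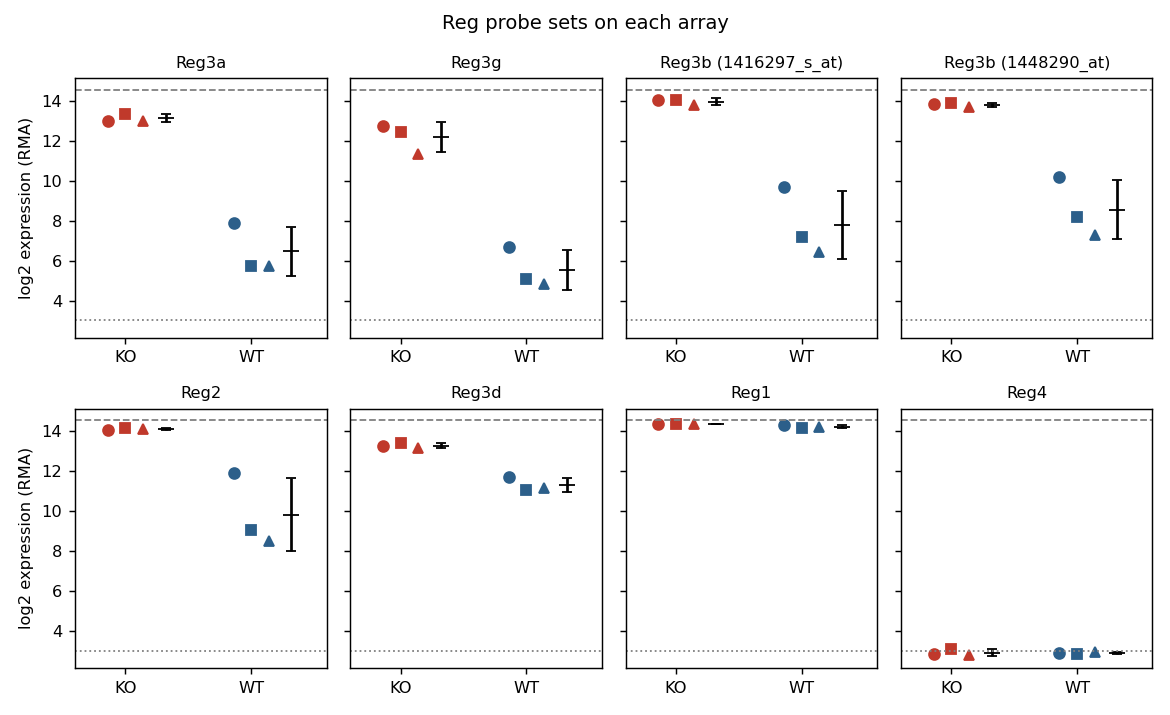
Expression of the 8 Reg probe sets (log2, RMA) on each KO (red) and WT (blue) array, with circles, squares and triangles for replicates 1, 2 and 3 and the mean with SD beside them (n = 3). The dotted line is the mean array median and the dashed line the mean of the arrays' highest values. Reg1 lies close to the dashed line in both genotypes and Reg4 on the dotted line.

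Reg2, of the stone protein branch, measured 14.09, 14.15 and 14.15 in KO and 11.93, 9.05 and 8.51 in WT (14.13 ± 0.03 against 9.83 ± 1.84). The difference was 4.30, or 19.7-fold, with no overlap between groups. Reg3d measured 13.25, 13.42 and 13.17 in KO and 11.74, 11.04 and 11.18 in WT (13.28 ± 0.13 against 11.32 ± 0.37), a difference of 1.96, or 3.90-fold. Reg1, an abundant acinar product, measured 14.39, 14.40 and 14.38 in KO and 14.31, 14.17 and 14.22 in WT, a difference of 0.16 with no overlap. Reg4 measured 2.84, 3.10 and 2.77 in KO and 2.90, 2.83 and 2.95 in WT. These lie at the array medians with overlapping groups, so no fold is given.

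In 7 of the 8 Reg probe sets all KO values lay above all WT values, as they did in 6.97% of all probe sets. In the limma fit over all probe sets, 5 of the 8, from the genes Reg3a, Reg3b, Reg3d and Reg3g, were among the sets called higher in KO at an adjusted p under 0.05, which made up 0.0733% of all probe sets. The median difference was 4.78 over the 8 Reg probe sets and 0.01 over all probe sets. The family was chosen for this contrast, so both counts and this median follow from the choice and nothing is read from them. In these bulk samples, more cells that make a Reg RNA and more RNA per cell cannot be told apart.

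The top of the scale limits several of these differences. The KO mean of Reg1 was 0.17 below the average highest value of the KO arrays, with 8 probe sets above it. The distances were 0.43 for Reg2, 0.73 and 0.58 for the plain and _s_at sets of Reg3b, 1.28 for Reg3d, 1.42 for Reg3a and 2.35 for Reg3g. Measured from the WT mean, Reg1 had 0.33 log2 units left below the highest value, Reg2 had 4.73, and Reg3d had 3.24, and a difference cannot be read beyond that distance. Probe sets this bright differ little between arrays: 31 others had a WT mean of 14 or more, and the median of their WT SDs was 0.017. The KO minus WT differences of those 31 ran from -0.06 to 0.02, against 0.16 for Reg1.

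The WT mice differed strongly among themselves in Reg2, Reg3a, Reg3b and Reg3g. WT replicate 1 held the highest WT value in 7 of the 8 Reg probe sets, all but Reg4. Its level was 8.92-fold the mean of the other WT arrays for Reg2, 5.36-fold and 7.41-fold for the plain and _s_at sets of Reg3b, 4.43-fold for Reg3a, 3.36-fold for Reg3g and 1.54-fold for Reg3d, as geometric means. The whole WT range was 10.8-fold for Reg2, 7.29-fold and 9.70-fold for the plain and _s_at sets of Reg3b, 4.46-fold for Reg3a and 3.67-fold for Reg3g, and WT replicate 3 was lowest in each of these sets.

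Set against the 500 other probe sets of nearest WT mean, the WT SD of Reg3a, Reg3g and both Reg3b sets was above all 500, and that of Reg2 above 99.8% of them. The median SD among those neighbours was 0.0971 to 0.135, against 1.02 to 1.84 for these Reg sets. Reg3d was above 98.4% of its neighbours, Reg1 above 45.8%. Few sets are as bright as Reg1, so its neighbours reach well below its level. Among the 31 others with a WT mean of 14 or more, the highest WT SD was 0.065, against 0.068 for Reg1. Over the whole step of WT means from 5 to 6, which holds Reg3g, the highest SD of another probe set was 2.85, for Xist. From 6 to 7 it was 1.38, against 1.24 for Reg3a. From 7 to 8 it was 2.61, for the metallothionein Mt2, against 1.71 for the _s_at set of Reg3b. From 8 to 9 it was 0.80, against 1.47 for the plain set of Reg3b. From 9 to 10 it was 1.91, for the metallothionein Mt1, against 1.84 for Reg2. In the KO arrays the SD was smaller than in WT for 7 of the 8, and the largest KO SD was 0.74, for Reg3g. Set against 500 neighbours by KO mean, the KO SD was above 99.6% of them for Reg3g, 93.2% for Reg3a, 79.0% and 89.8% for the plain and _s_at sets of Reg3b, 85.0% for Reg3d, 15.6% for Reg2 and 1.6% for Reg1. Few sets are this bright, so these neighbours reach well below most of these levels and the percentages can understate the spread. The 31 others with a KO mean of 14 or more had a median SD of 0.020, against 0.033 for Reg2 and 0.008 for Reg1. Among the 32 others from 13 to 14 it was 0.044, against 0.198 for Reg3a and 0.126 for Reg3d. The plain and _s_at sets of Reg3b, also at that level, had 0.109 and 0.157. KO values near the top of the scale are compressed, so the smaller KO spread cannot be told apart from that limit. Xist was low in WT replicates 1 and 2 and high in WT replicate 3. In Reg2, Reg3a, Reg3b and Reg3g, WT replicate 1 was the highest WT array and WT replicate 3 the lowest. The part of sex in the WT spread was not tested.

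**Figure D2:**
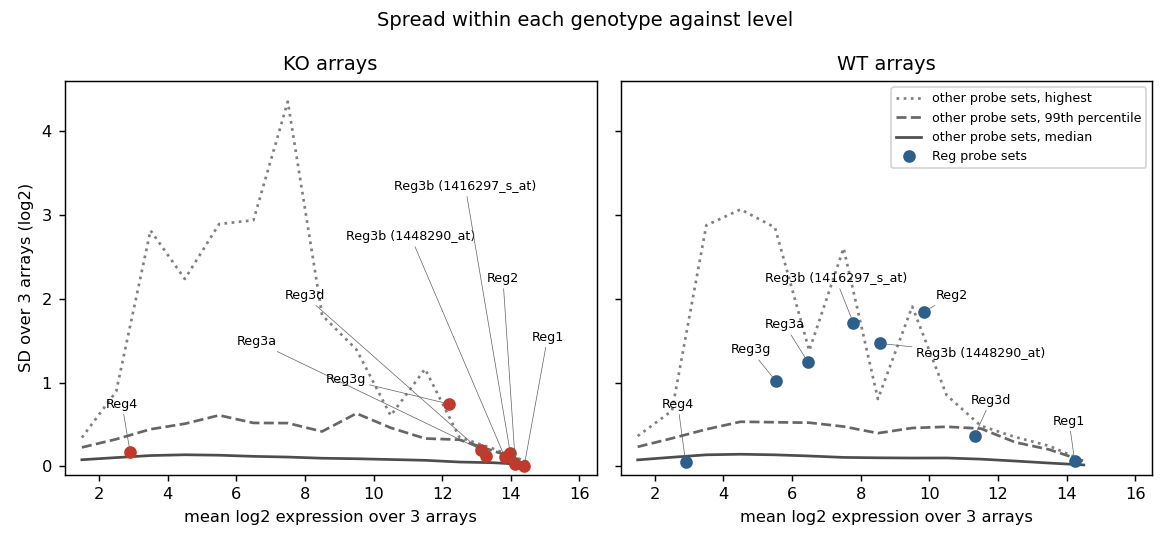
SD over 3 arrays against the mean log2 expression, for KO (left) and WT (right), with 1 point per Reg probe set. Grey lines give the median (solid), an upper percentile (dashed) and the highest SD (dotted) of the other probe sets in steps of 1 log2 unit. The 5 WT points of Reg2, Reg3a, Reg3b and Reg3g lie at an SD of 1.02 to 1.84, above the dashed line, and the KO points crowd near the top of the scale.

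The differences were recomputed with each array left out. That of Reg3a ran from 6.31 to 7.39, that of Reg3g from 6.33 to 7.26, and those of the plain and _s_at sets of Reg3b from 4.64 to 6.07 and from 5.53 to 7.16. Reg2 ran from 3.64 to 5.36, Reg3d from 1.82 to 2.17 and Reg1 from 0.13 to 0.19. The highest value of these 7 probe sets came each time without WT replicate 1, and each range stayed above 0. Reg4 ran from -0.09 to 0.08.

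**Figure D3:**
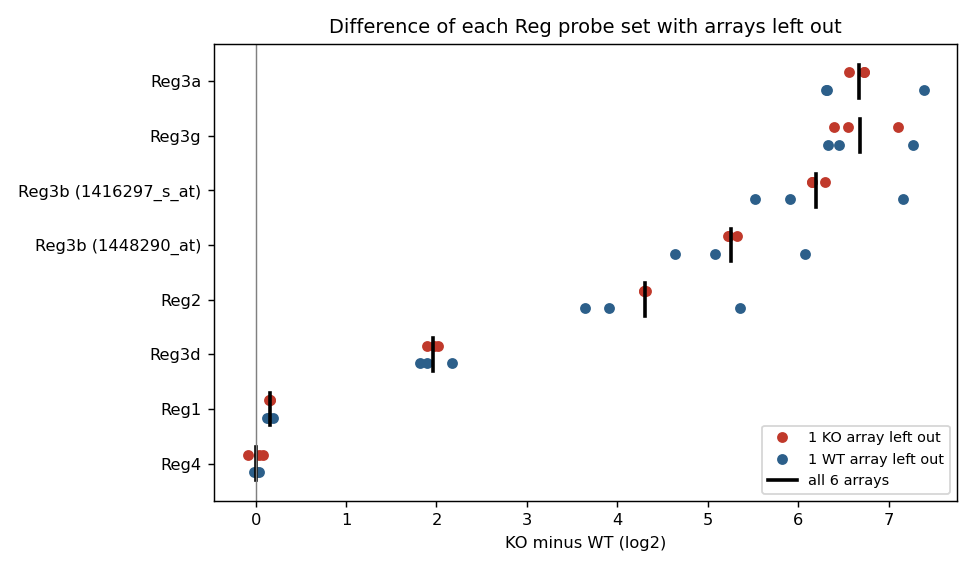
KO minus WT difference (log2, horizontal axis) of each Reg probe set with all 6 arrays (black bar), with 1 KO array left out (red) and with 1 WT array left out (blue). The blue points spread more widely than the red ones for Reg2, Reg3a and Reg3b, and the farthest blue point of each set that differs is the value without WT replicate 1.

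The signalling chain that is known to induce Reg3 genes was followed in a list of IL-6 family, IL-17 and IL-22 receptors, JAK kinases, STAT3 and its targets. The list, like all lists here, holds no Reg gene. Of 33 entries 30 were measured, by the brightest single-gene probe set, and 0 passed an adjusted p under 0.05 by limma, against 0.132% of all genes. An unadjusted p under 0.05 was found for 7 of the 30, and for 10.1% of all genes. Members split evenly, 15 higher and 15 lower, with a median difference of 0.00, and 5 lay wholly above WT in KO, as did 6.87% of all genes. In 3 of the 30, Jun, Stat5b and Jak1, KO lay wholly below WT, as it did in 7.56% of all genes.

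The 5 above WT were Stat3, Socs3, Nfkbiz, Bcl3 and Cebpd. Of these 8 genes, all but Stat3 and Socs3 were named after their values were seen. Stat3, the transcription factor of the chain, measured 7.52, 6.77 and 6.98 in KO and 6.23, 6.13 and 6.39 in WT. The difference was 0.84 (95% interval 0.45 to 1.22, limma adjusted p 0.203). Socs3, its feedback inhibitor and target, measured 7.13, 6.22 and 5.89 in KO and 5.23, 4.41 and 5.40 in WT, a difference of 1.40 (0.68 to 2.12, limma adjusted p 0.255). For both genes the groups did not overlap and KO replicate 1 was highest. WT replicate 1, the WT array with the highest Reg levels, was not the highest WT array in either gene, but it was in Nfkbiz and Bcl3. Nfkbiz, an atypical IkappaB protein, differed by 0.56, Bcl3 by 0.57 and Cebpd by 0.35, with limma adjusted p of 0.271, 0.317 and 0.351. Jun, a subunit of the AP-1 transcription factor, measured 5.39, 4.98 and 5.12 in KO and 6.33, 6.24 and 5.67 in WT, a difference of -0.91 and the lowest p of the list (limma adjusted p 0.176). Without WT replicate 3 the difference of Jun was -1.12 and passed, with a limma adjusted p of 0.0306. Stat5b differed by -0.29 and Jak1, a kinase of the chain, by -0.15 (limma adjusted p 0.431 and 0.683).

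The receptors showed smaller differences. Il6st, the shared signalling chain gp130, measured 5.35, 5.24 and 5.80 in KO and 5.23, 5.59 and 5.28 in WT, with overlapping groups. Il22ra1, the IL-22 receptor chain of epithelium, differed by -0.04 (95% interval -0.27 to 0.19), and Il17ra by -0.21 (-0.50 to 0.08). Il6 itself measured 2.05 to 2.21 in KO and 1.97 to 2.11 in WT, below the array medians. Il22 had no single-gene probe set and was not analysed here.

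Extl3, a membrane glycosyltransferase described as a receptor of Reg proteins, measured 8.20, 8.18 and 8.24 in KO and 8.22, 8.27 and 8.16 in WT, a difference of -0.01 (95% interval -0.20 to 0.18). Egfr, described as another partner, differed by 0.25 (-0.03 to 0.53). Of the 10 genes in this list, all measured, 0 were called by limma and 5 had an unadjusted p under 0.05 (against 10.1% of all genes), with 4 higher and 6 lower and a median of -0.09. In 4 of the 10 all KO values lay below all WT values, against 7.56% of all genes. Among them were Ext1 and Extl2, relatives of Extl3 in heparan sulfate synthesis named after their values were seen, with differences of -0.38 and -0.52 (limma adjusted p 0.234 and 0.241). Extl1, another relative, and Sdc1, both named likewise, went the other way. They differed by 0.29 and 0.32 with overlapping groups (limma adjusted p 0.554 and 0.553), so the list had no common direction.

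**Figure D4:**
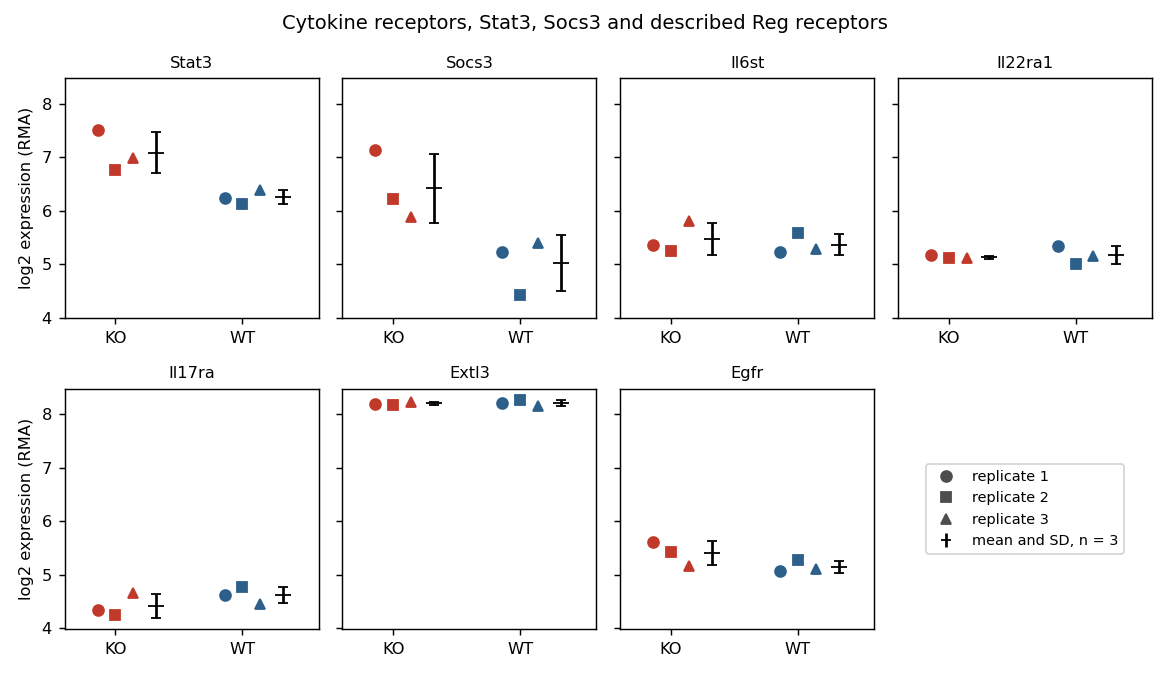
Expression (log2, RMA) of Stat3, Socs3, 3 cytokine receptor genes and the described Reg receptors Extl3 and Egfr on each KO (red) and WT (blue) array, with the mean and SD (n = 3). KO values lie above all WT values for Stat3 and Socs3, and the groups overlap for the other 5 genes.

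The genes that flank the Reg genes were followed next. The 5 protein-coding genes of RefSeq on each side of the chromosome 6 cluster and of Reg4 gave 20 neighbours, of which 14 were measured. In KO 6 were higher and 8 lower, with a median of -0.04. By limma 0 were called, against 0.132% of all genes, and 2 had an unadjusted p under 0.05, against 10.1%. Those 2, named after their values were seen, were Mrpl19, a mitochondrial ribosomal protein gene after the cluster, at -0.49 with no overlap, and Pde4dip, on the side of Reg4, at -0.38 with overlap (limma adjusted p 0.368 and 0.506). Ctnna2 and Lrrtm1, before the cluster, differed by 0.14 and 0.26, and Lrrtm4, after it, by -0.22, all at levels below the array medians. Phgdh, a serine synthesis enzyme beside Reg4, differed by 0.02 at a mean of 11.52 in KO and 11.50 in WT.

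Other groups often measured with Reg genes were also set beside them. Of 23 measured genes of pancreatic injury, 12 were higher and 11 lower with a median of 0.02. By limma 0 were called, against 0.132% of all genes, and 3 had an unadjusted p under 0.05, against 10.1%. Those 3, named after their values were seen, were all higher in KO on average. Mt2, a metallothionein, measured 8.51, 11.28 and 10.17 in KO and 5.75, 6.02 and 10.39 in WT, with overlap and a difference of 2.60 (limma adjusted p 0.557). Sox9, a duct transcription factor that is also on the duct list, measured 6.42, 5.80 and 6.13 in KO and 5.78, 5.39 and 5.62 in WT, without overlap and with a difference of 0.52 (limma adjusted p 0.389). Saa3, an acute phase protein, differed by 0.37 with overlap (limma adjusted p 0.516). Lcn2, an acute phase lipocalin, measured 2.33 to 2.65 in KO and 2.53 to 2.67 in WT, below the array medians. Clu, a secreted chaperone of injured acinar cells, measured 12.01 to 12.12 in KO and 11.78 to 12.15 in WT. Of 15 measured antimicrobial proteins 0 were called and 2 had an unadjusted p under 0.05, against 0.132% and 10.1% of all genes. These were Dmbt1, a secreted mucin-like protein, and Pigr, the receptor that carries antibodies across epithelium, both named after their values were seen. Dmbt1 measured 13.74, 13.82 and 13.82 in KO and 13.51, 13.31 and 13.33 in WT, a difference of 0.41 (limma adjusted p 0.24, 0.0192 to 0.589 over the alternatives). Pigr measured 3.80, 3.63 and 3.69 in KO and 2.95, 3.20 and 2.93 in WT, a difference of 0.68 (limma adjusted p 0.063). In both genes the groups did not overlap. Of 17 measured small lectins outside the Reg family, 8 were higher and 9 lower with a median of 0.00. Of these, 1 was called by limma, against 0.132% of all genes. It was the endothelial lectin Clec14a, at 3.14, 3.46 and 3.33 in KO and 4.21, 4.12 and 4.01 in WT (difference -0.81, limma adjusted p 0.0362). That call was lost with any 1 array left out, with the replicate block and with Xist as a covariate, with adjusted p from 0.0297 to 0.231 over the alternatives.

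The tissue was checked against markers of pancreas and of organs next to it, with levels brought back to the linear scale and summed over each list. Acinar markers, 10 of 12 measured, summed to 133781 to 136703 in KO and 137587 to 138716 in WT, with values up to 14.52, at the top of the scale. All 10 were lower in KO, with a median difference of -0.03. The one with an unadjusted p under 0.05 was Ptf1a, a subunit of PTF1, named after its values were seen. It measured 9.11, 9.91 and 9.59 in KO and 10.50, 10.08 and 9.72 in WT. The groups overlapped, with a difference of -0.56 (limma adjusted p 0.519). Islet markers, 7 of 9 measured, summed to 10841 to 12144 in KO and 12070 to 13094 in WT, and all 7 were lower in KO, with a median difference of -0.13. Intestinal markers, 13 of 14 measured, summed to 105 to 120 in KO and 106 to 138 in WT. Of these, 12 lay below the upper quartile of probe sets, 4.53, on every array, and Fabp2, a defining enterocyte gene, measured 1.93 to 2.31 in KO and 2.03 to 2.15 in WT. Leukocyte markers, 14 of 16 measured, summed to 245 to 497 in KO and 291 to 332 in WT, with 10 below that quartile on every array. KO replicate 2 had the highest leukocyte sum, and in it the neutrophil genes S100a8 and S100a9 measured 7.24 and 5.85, their highest values on any array.

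Sums of duct and liver markers and of antimicrobial proteins, like those of acinar markers, did not overlap between genotypes. Duct markers, 8 of 10 measured, summed to 895 to 976 in KO and 764 to 773 in WT. Of the 8, 4 were higher and 4 lower, and the brightest, the surface mucin Muc1, measured 8.91, 9.23 and 9.29 in KO and 8.52, 8.63 and 8.51 in WT (limma adjusted p 0.177). Antimicrobial proteins summed to 14195 to 15867 in KO and 11123 to 12523 in WT, with Dmbt1 the brightest. Liver markers, 10 of 11 measured, summed to 1056 to 1554 in KO and 2032 to 2245 in WT, with 6 of the 10 higher and 4 lower. The brightest member was Ttr, also made in islets, at 9.87 to 10.48 in KO and 10.90 to 11.03 in WT. Albumin (Alb) measured 3.95 to 4.44 in KO and 3.74 to 4.51 in WT. On the linear scale the brightest member weighs most, so the duct, liver and antimicrobial sums largely follow Muc1, Ttr and Dmbt1. Sums without these genes were not computed, and no shift of a whole list is read from them. Stomach markers, 9 of 10 measured, summed to 9137 to 9775 in KO and 9079 to 9509 in WT. Most of that sum was Tff2, at 13.12 to 13.22 in KO and 13.11 to 13.18 in WT. Of the 9, 5 lay below the upper quartile of probe sets on every array. The 4 measured markers of spleen and lymph node summed to 42 to 109 in KO and 59 to 87 in WT, and the 3 measured fat markers to 532 to 840 in KO and 728 to 1422 in WT. By limma 0 members of these cell type lists were called, against 0.132% of all genes. An unadjusted p under 0.05 was found for 3 duct, 3 leukocyte, 1 acinar, 1 islet and 1 liver marker, against 10.1% of all genes. Their part in the Reg differences was not tested.

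The genes whose profile was most like that of Reg3a, Reg3b and Reg3g were sought among 296 genes with a mean at or above the upper quartile and a range of at least 1 log2 unit. Over the 6 arrays the highest Pearson correlations with the mean Reg3 profile were 0.988 for Itih4, 0.984 for Serpina10, 0.983 for B4galt1, 0.981 for Upk1b, 0.978 for Wars, 0.959 for Ifitm3, 0.949 for F2 and 0.947 for Hkdc1. These 6 points fall into the 2 genotypes, so the values mainly describe the gap between them. Itih4, a plasma protein of the acute phase, measured 8.27, 8.71 and 8.99 in KO and 5.77, 4.47 and 4.41 in WT, with WT replicate 1 highest among WT arrays as in the Reg genes. Hkdc1, a hexokinase-like protein, measured 5.78, 5.65 and 5.42 in KO and 5.02, 3.86 and 4.22 in WT, and Ifitm3, an interferon-induced membrane protein, 10.28, 10.41 and 10.07 in KO and 9.75, 9.64 and 9.38 in WT.

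Deviations from each genotype's mean follow the mice and not the genotypes. By that measure the closest genes were Arrdc3 at 0.941, Nfxl1 at 0.919, Rundc1 at 0.905, Hkdc1 at 0.897, Hspa13 at 0.889, Ctu1 at 0.864, and Alg2 and Dnajb9 at 0.858, each over 6 arrays. Hkdc1 was the 1 gene on both lists. Arrdc3, an arrestin-domain protein, measured 4.75, 4.59 and 4.38 in KO and 5.78, 5.11 and 4.52 in WT, so that it shared the order of the WT mice with Reg3a, Reg3b and Reg3g and not the higher level in KO. Dnajb9, a chaperone of the endoplasmic reticulum, measured 9.02, 8.72 and 8.08 in KO and 8.89, 8.21 and 7.87 in WT, with overlapping groups. These are the highest of 296 correlations over 6 points and carry no test.

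**Figure D5:**
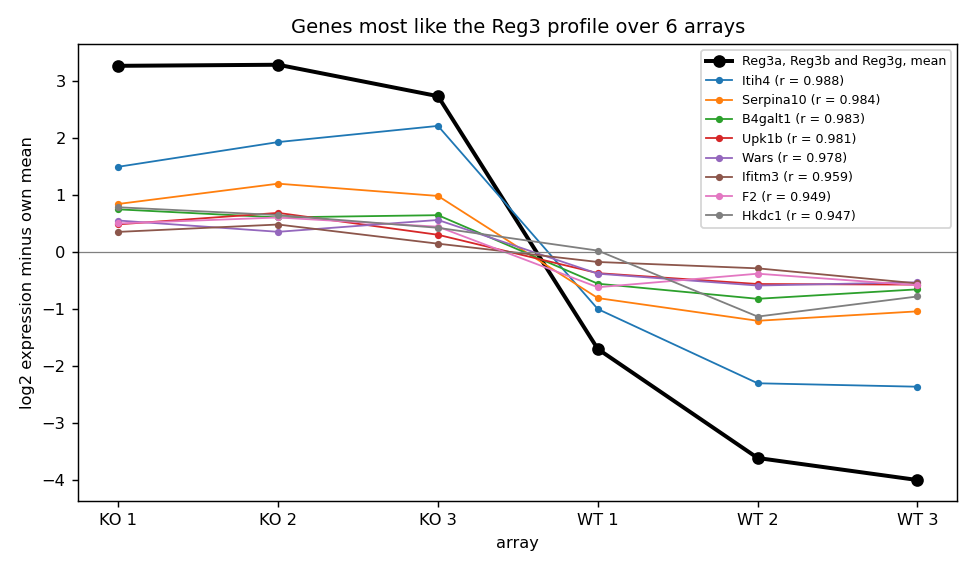
Log2 expression minus each gene's own mean on the 3 KO and 3 WT arrays, for the mean of Reg3a, Reg3b and Reg3g (black) and the 8 genes with the highest Pearson r, from 0.947 to 0.988. Lines join the points of 1 gene and the arrays have no order within a genotype. The black line spans the widest range, with WT 1 above WT 2 and WT 3.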

How the data were processed

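RNA of 6 whole pancreas samples was hybridised to 6 Affymetrix arrays, 3 KO and 3 WT, grouped by the genotype in the sample titles. The authors deposited log2 expression values, 1 per probe set and array. The submitters' processing notes name RMA and affy, without versions. RMA gives all arrays nearly the same distribution, which hides a shift common to most transcripts, and bright sets are compressed. It makes no detection calls. The number of arrays limits the precision.

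Of 45101 probe sets, 64 Affymetrix controls were left out of the tests. Single gene symbols, held by 34958 sets, were brought up to date for 34754 sets by matching Entrez numbers to RefSeq. Differences were fitted as KO minus WT with limma 3.58.1 in R 4.3.3, two-sided, with Benjamini-Hochberg adjustment over 45037 probe sets, and a threshold of 0.05 for calls. Each gene was read from its brightest single-gene set. The fit was checked on simulated data. Promoters were aligned with Biopython 1.88 and figures drawn with matplotlib 3.10.9. The members, the lists and the naming rule (all Reg probe sets, called genes of the lists, 7 always-named regulators and receptors, and the 8 closest profiles by each of 2 measures) were chosen with earlier results of these data known. Genes named outside it are said to be so in the text, apart from marker, injury and neighbour genes given as examples after their values were seen. Alternatives were other scalings, a filter on dim sets, other variance models, weighted arrays, a block for the replicate number, Xist as a covariate and each array left out. Same-numbered arrays of the genotypes shared no pairing in the labels, and their deviations from the genotype means correlated at 0.19, -0.03 and -0.08.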

Additional observations from a re-analysis of the deposited data

How the results depend on the processing

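The KO minus WT differences of all 8 Reg probe sets moved by less than their pooled SD under every alternative tried on them. These were Xist as a covariate, a second quantile normalization, each array left out, the replicate block and equal array medians. For Reg3b the mean of both sets also kept to this limit, and Reg4 changed sign around 0. With 1 of 3 arrays left out, a group mean cannot move by as much as the pooled SD, so that part could not fail. The replicate block leaves each difference unchanged and equal medians shift all probe sets alike, so no stability is read from these either. RMA had already given the arrays nearly the same distribution, so a second quantile normalization was a weak check. Left out in turn, the arrays gave 6.31 to 7.39 for Reg3a, 6.33 to 7.26 for Reg3g, 4.64 to 6.07 and 5.53 to 7.16 for Reg3b, 3.64 to 5.36 for Reg2, 1.82 to 2.17 for Reg3d, 0.13 to 0.19 for Reg1 and -0.09 to 0.08 for Reg4. The count of called probe sets was 44, and 22 with the Xist covariate, 76 at an adjusted p under 0.1, and 16 to 41 with an array left out, with 24, 18, 26 and 16 without KO replicate 1, KO replicate 2, WT replicate 1 and WT replicate 2. Fits with fewer arrays have less power. With the replicate block it was 33, and same-numbered arrays were not the most alike in 2 of 3 pairs. In the regulator, receptor and neighbour lists the 0 calls stayed 0 in 14 of 15 alternatives and were 0 to 1 with an array left out, the 1 being Jun at -1.12 without WT replicate 3. In the injury, antimicrobial and lectin lists the 1 call, Clec14a, became 0 calls with the replicate block, with the Xist covariate and with any array left out (0 to 0), 2 calls with an intensity trend and robust variance, where Dmbt1 passed, and 2 at an adjusted p under 0.1. Where that call was lost, Clec14a had an adjusted p between 0.0666 and 0.231. Differences near 0 changed sign for Extl3, to 0.0509 with a second quantile normalization, 0.00164 with the Xist covariate and -0.0372 to 0.0143 with an array left out, for Il6st (-0.0676 to 0.213) and for Il22ra1 (-0.123 to 0.0507), none called. Other causes of these changes were not tested.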
